A study of Mus musculus with 6 samples.

Results

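The genes described here encode proteins of mitosis and of DNA replication, 42 in all, of the 23337 gene symbols in a table of read counts. They were taken by name, 27 for mitosis and 15 for replication, and both sets are read apart. Every one of the 42 was present in the table and passed the filter on low counts. The counts came from mouse bone marrow-derived macrophages in 3 groups of 2 libraries each: wild type (WT), cells without Ch25h (Ch25hKO), and cells without both liver X receptor genes (LXRdKO). All 6 libraries were from C57BL/6 mice, and all cells were grown in M-CSF to day 7 and then given 100 ng/ml LPS for 8 h, so there is no unstimulated group. The sources used here give neither the deleted part of each gene nor the age of the mice. Ch25h encodes the enzyme that makes 25-hydroxycholesterol, and the liver X receptors LXRα (Nr1h3) and LXRβ (Nr1h2) are nuclear receptors for oxysterols.

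A dividing cell loads the MCM helicase onto its origins, copies its DNA with the sliding clamp PCNA, and then enters mitosis when CDK1 binds a B-type cyclin. Genes of DNA replication are switched on around the G1 to S transition, largely by E2F factors. Genes of mitosis follow in G2 through the MuvB complexes, which bind a CHR element that often lies near CCAAT boxes. Macrophages grown with M-CSF divide in culture, and LPS is known to stop them from doing so.

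Total counts ranged from 41650513 to 45872964 per library. The targeted genes were low where the labels say so: Ch25h stood at 1.61% of its WT level in Ch25hKO, and Nr1h3 and Nr1h2 at 5.64% and 2.59% in LXRdKO. Levels are in CPM, read counts scaled to a common library size. Changes are given on the log2 scale with their standard error (n = 2 in each group), and adjusted p-values come from edgeR's quasi-likelihood test over 12923 genes, with 0.05 as the threshold. Separate cultures or animals are not named for the libraries of a group, so a p-value measures the spread between these libraries alone, and that spread may be technical. Macrophage markers were abundant, their summed level lying between 17073 and 20620 CPM in every library.

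Promoters were searched for the motifs of both programmes in the 250 bases before the RefSeq start (build GRCm38.p6), and 35 of the 42 genes had such a window. The words searched on both strands were TTTGAA and TTCGAA for CHR, CCAAT for the CCAAT box, and TTTCCCGC, TTTCGCGC, TTTGCCGC and TTTGGCGC for E2F. The 4 promoters below belong to the mitotic and replication genes with the lowest p in LXRdKO against WT among those with a motif. Each is printed 5′ to 3′ on the gene's own strand, with every motif match in capitals.
Ccnf, chr17:24251410-24251659, minus strand: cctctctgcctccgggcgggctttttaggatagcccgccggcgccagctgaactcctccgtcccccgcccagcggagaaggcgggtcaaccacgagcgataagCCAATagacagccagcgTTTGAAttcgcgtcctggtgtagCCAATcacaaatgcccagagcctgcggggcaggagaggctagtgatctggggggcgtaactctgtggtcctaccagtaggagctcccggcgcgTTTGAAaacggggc
Ube2c, chr2:164769679-164769897, plus strand: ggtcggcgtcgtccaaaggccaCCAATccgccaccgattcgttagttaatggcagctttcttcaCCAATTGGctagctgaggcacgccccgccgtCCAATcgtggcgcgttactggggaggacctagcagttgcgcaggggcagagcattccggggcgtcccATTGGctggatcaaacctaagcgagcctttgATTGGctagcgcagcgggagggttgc
Mcm5, chr8:75109259-75109508, plus strand: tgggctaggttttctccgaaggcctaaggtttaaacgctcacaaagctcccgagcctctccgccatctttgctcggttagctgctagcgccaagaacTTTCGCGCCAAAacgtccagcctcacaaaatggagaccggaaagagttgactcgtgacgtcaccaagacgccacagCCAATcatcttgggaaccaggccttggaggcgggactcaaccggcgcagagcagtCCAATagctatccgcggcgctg
Mcm6, chr1:128359706-128359955, minus strand: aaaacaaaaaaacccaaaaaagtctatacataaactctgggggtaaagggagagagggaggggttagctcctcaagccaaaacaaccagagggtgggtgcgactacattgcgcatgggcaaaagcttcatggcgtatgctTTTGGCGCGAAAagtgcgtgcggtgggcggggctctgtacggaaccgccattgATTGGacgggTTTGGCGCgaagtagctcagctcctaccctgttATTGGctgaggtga
The Ccnf window holds 2 CHR words, 130 to 125 and 14 to 9 bases before the start, and 2 CCAAT boxes. The GENCODE gene reaches to 24251484, within this window, so the second CHR word lies inside the annotated gene. No bases were cut there, as exons of retained-intron transcripts were not used for cutting. The Ube2c window holds 6 CCAAT boxes, a pair of which overlap, and 1 CHR word at 29 to 24 bases before the start, in the last 31 bases, which are not printed because an annotated Ube2c exon covers them. Mcm5 has 2 overlapping E2F words on opposite strands and Mcm6 has 3 E2F words, of which the first and second overlap.

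CCAAT boxes were found in 21 of 23 mitotic promoters (91.3%) and in 8 of 12 replication promoters (66.7%), against 37.5% of all 27025 genes with a window. A CHR word was found in 10 of 23 mitotic promoters (43.5%) and 2 of 12 replication promoters (16.7%), against 19.6% of all genes. E2F words showed the opposite order, with 4 of 12 replication promoters (33.3%), 1 of 23 mitotic promoters (4.35%) and 2.16% of all genes. The replication genes with an E2F word were Cdc6, Mcm5, Mcm6 and Mcm7, and the mitotic gene was Cdk1. Of the mitotic genes with a window, 7 of 17 that fell in LXRdKO and 3 of 6 that did not pass the test there had a CHR word. These are counts of letters in a window, not of bound sites.

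Most of the mitotic genes were at low levels in WT. Their median was 2.78 CPM, with 21 of 27 under 5 CPM, from 0.512 CPM for Cdc20 to 120 CPM for Mki67. The replication genes had a median of 4.90 CPM, with 8 of 15 under 5 CPM, from 0.522 CPM for Rrm2 to 159 CPM for Pcna. Per kilobase of annotated exon, Pcna led in WT with 105 CPM per kb, followed by Tpx2 with 19.7, Mki67 with 11.9, Cdt1 with 10.8 and Mcm6 with 5.93. Mki67 and Cdt1 lay close to each other, with WT libraries at 11.2 and 12.7 CPM per kb for Mki67 and 11.3 and 10.3 for Cdt1, so these neighbours overlap. The lowest were Kif20a at 0.198, Cdc6 at 0.183 and Ttk at 0.177 CPM per kb. The mitotic median was 0.790 and the replication median 1.45 CPM per kb.

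**Figure D1:**
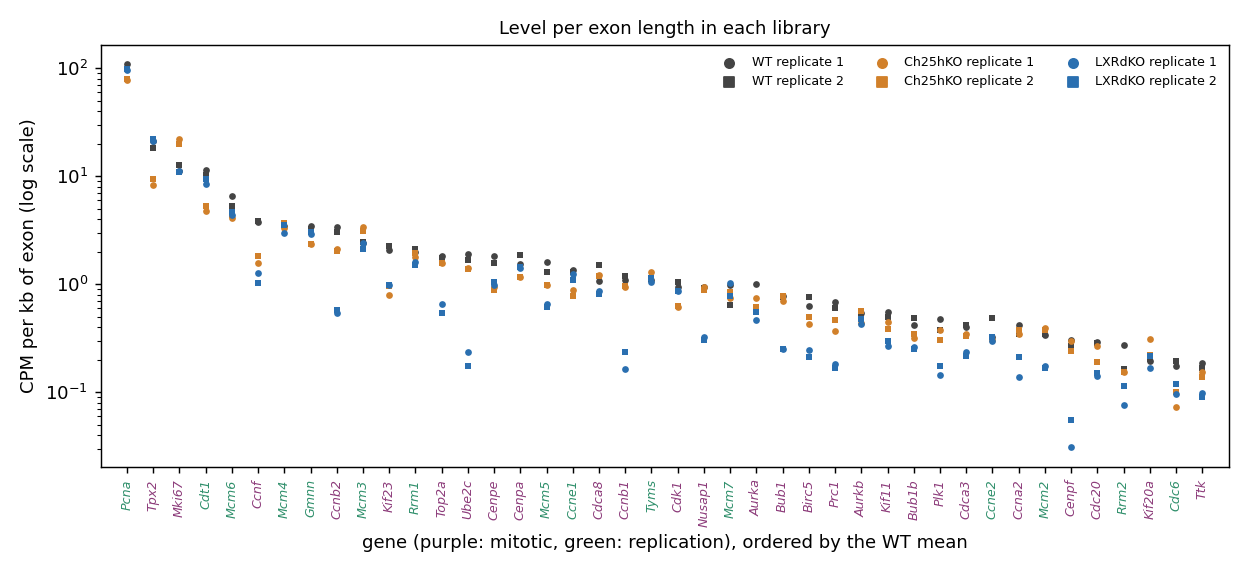
Level of each of the 42 genes in CPM per kilobase of exon (log scale) in each of the 6 libraries, ordered by the WT mean; purple names are mitotic and green names replication genes. Pcna stands at the top at 105 CPM per kb in WT, and Ttk is lowest at 0.177.

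A few genes held most of the reads. Mki67 took 37.5% and 42.4% of the mitotic counts of the WT libraries, 69.1% and 65.2% of Ch25hKO, and 45.7% and 44.5% of LXRdKO. Pcna took 60.5% to 64.5% of the replication counts in every library. Without Mki67 and Tpx2, a pair left out after their levels were seen, the remaining 25 mitotic genes summed to 95.9 and 93.6 CPM in WT, in Ch25hKO 64.5 and 64.5, and in LXRdKO 40.4 and 40.1. The summed level of those 25 was highest in both WT libraries and lowest in both LXRdKO libraries. That order depends on the genes kept. All 27 summed to 302 and 301 CPM in WT, in Ch25hKO 326 and 304, and in LXRdKO 244 and 248, so that Ch25hKO was highest. Without Mki67 alone the sums were 189 and 173 CPM in WT, in Ch25hKO 101 and 106, and in LXRdKO 133 and 138, so that Ch25hKO was lowest. LXRdKO lay below WT in all 3 sums. In RNA from a whole culture, fewer dividing cells and less RNA per cell cannot be told apart.

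Most mitotic genes were lower in cells without both LXRs. In LXRdKO against WT, 18 of 27 mitotic genes fell, 0 rose (0 also at an unadjusted p under 0.05 and with DESeq2) and 9 did not pass the test (edgeR), where 15.5% of all tested genes were called lower and 16.4% higher. Among the 4782 tested genes with a mean under 5 CPM, 13.4% were called lower and 5.08% higher. The median change of the mitotic genes was -0.96 on the log2 scale, against 0.00 for all genes, and 13 of 27 had fitted changes of at least 2-fold downward. Both LXRdKO libraries lay below both WT libraries for 25 of the 27, as they did for 30.6% of all tested genes. The exceptions were Tpx2 and Kif20a. Without either LXRdKO library in turn, or any other library, between 14 and 18 mitotic genes were called lower.

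Fewer of the same 27 genes were called in cells without Ch25h, a difference that rests on genes at low levels. Of the 6 left by a filter of at least 5 CPM in 2 libraries, 4 were called lower in each knockout. Their medians were -1.05 in Ch25hKO and -0.98 in LXRdKO. In Ch25hKO against WT, 9 mitotic genes fell, 1 rose and 17 did not pass the test, where 19.5% of all tested genes were called lower and 19.8% higher. At means under 5 CPM, 13.4% were called lower and 10.5% higher. The median change was -0.30, against 0.01 for all genes, and both Ch25hKO libraries lay below both WT libraries for 17 of 27, against 32.7% of all genes. The knockouts were also compared with each other, which tests how they differ. In LXRdKO against Ch25hKO, 15 mitotic genes were lower, 2 were higher and 10 did not pass, where 18.6% of all tested genes were called lower and 19.3% higher (12.4% and 8.13% at means under 5 CPM). The median difference was -0.62, against -0.01 for all genes. Both LXRdKO libraries lay below both Ch25hKO libraries for 21 of 27, against 36.6% of all genes. Both comparisons with WT share the 2 WT libraries, so their calls are not independent.

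The replication genes were counted apart from the mitotic ones. In LXRdKO against WT, 6 of 15 fell and 0 rose (0 also at an unadjusted p under 0.05 and with DESeq2), with a median of -0.27. In Ch25hKO against WT, 7 of 15 fell and 1 rose, with a median of -0.40. Between the knockouts 3 were lower and 4 higher in LXRdKO, with a median of 0.00, and these are 20.0% and 26.7% of the list beside 18.6% and 19.3% of all tested genes. The 7 and 6 genes that fell are 46.7% and 40.0% of the list, against 19.5% and 15.5% of all tested genes.

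**Figure D2:**
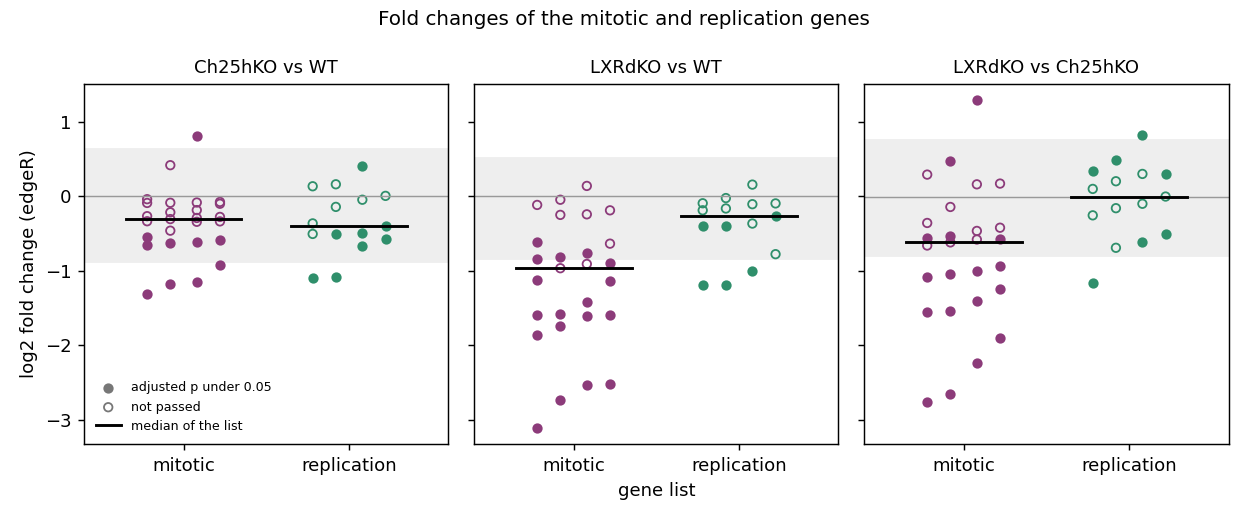
Log2 fold change (edgeR, vertical axis) of each of the 27 mitotic (purple) and 15 replication genes (green) in the 3 comparisons. Filled points have an adjusted p under 0.05, open points do not, the black bar is the list's median and the grey band spans the 5th to the 95th percentile of all 12923 tested genes. The mitotic median is -0.30 in Ch25hKO and -0.96 in LXRdKO.

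The cyclins of mitosis and their kinase showed both patterns. Ccnb1 and Ccnb2 encode the B-type cyclins that activate CDK1. Ccnb1 (ENSMUSG00000041431.16, chromosome 13, 100778650 to 100786570, GRCm38) was at 2.75 and 2.99 CPM in WT, in Ch25hKO 2.33 and 2.41, and in LXRdKO 0.410 and 0.588. Its LXRdKO libraries were far below the other 4, and it fell 5.72-fold there (-2.52 ± 0.22, edgeR adjusted p = 1.43e-07), while in Ch25hKO it did not pass the test (-0.28 ± 0.17, edgeR adjusted p = 0.216). Ccnb2 (ENSMUSG00000032218.7, chromosome 9, 70407692 to 70421547) was at 5.18 and 4.70 CPM in WT, in Ch25hKO 3.25 and 3.14, and in LXRdKO 0.820 and 0.882. The 3 groups did not overlap, and Ccnb2 fell 1.54-fold in Ch25hKO (-0.63 ± 0.14, edgeR adjusted p = 0.00148) and 5.78-fold in LXRdKO (-2.53 ± 0.17, edgeR adjusted p = 4.35e-09). Between the knockouts Ccnb1 was 4.72-fold and Ccnb2 3.75-fold lower in LXRdKO.

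Ccnf encodes cyclin F, the substrate receptor of an SCF ubiquitin ligase. Ccnf (ENSMUSG00000072082.7, chromosome 17, 24222198 to 24251484), whose promoter is printed above, was at 15.7 and 15.9 CPM in WT, in Ch25hKO 6.55 and 7.50, and in LXRdKO 5.24 and 4.23. Both knockouts lay well below WT, with a 2.25-fold fall in Ch25hKO (-1.17 ± 0.10, edgeR adjusted p = 8.06e-08) and a 3.34-fold fall in LXRdKO (-1.74 ± 0.11, edgeR adjusted p = 1.49e-09). The knockouts differed from each other by -0.57 ± 0.12 (edgeR adjusted p = 0.00079), LXRdKO being lower. Ccna2 encodes cyclin A2, which works from S phase into mitosis, and was at 1.51 and 1.27 CPM in WT, in Ch25hKO 1.25 and 1.38, and in LXRdKO 0.501 and 0.769. It fell in LXRdKO (-1.12 ± 0.27, edgeR adjusted p = 0.0035), a call that did not hold without LXRdKO replicate 1 (-0.85, edgeR adjusted p = 0.0727), and its WT and Ch25hKO libraries overlapped.

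Cdk1, the kinase that cyclins A and B activate, did not pass the test in LXRdKO, where Ccnb1 and Ccnb2 fell. Cdk1 (ENSMUSG00000019942.13, chromosome 10, 69335146 to 69352938) was at 4.23 and 4.74 CPM in WT, in Ch25hKO 2.81 and 2.87, and in LXRdKO 3.94 and 3.94. The low group was Ch25hKO, where it fell 1.58-fold (-0.66 ± 0.14, edgeR adjusted p = 0.000876). In LXRdKO it did not pass the test (-0.19 ± 0.13, edgeR adjusted p = 0.295). The difference between the knockouts, 0.47 ± 0.14 (edgeR adjusted p = 0.0114), was lost with DESeq2 and without any 1 of the 4 libraries compared.

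The checkpoint and ubiquitination genes moved in LXRdKO, where 3 of 5 fell, beside 15.5% of all tested genes. In Ch25hKO 0 of 5 passed the test in edgeR or DESeq2, beside 19.5% of all tested genes called lower. There, 2 of the 5, Bub1b and Ube2c, were at an unadjusted p under 0.05. Ube2c encodes the ubiquitin-conjugating enzyme of the anaphase-promoting complex, which marks mitotic cyclins for destruction. Ube2c (ENSMUSG00000001403.13, chromosome 2, 164769898 to 164778822) was at 4.91 and 4.33 CPM in WT, in Ch25hKO 3.69 and 3.60, and in LXRdKO 0.615 and 0.452. The LXRdKO libraries were the lowest by a wide margin, and the fall of 8.62-fold (-3.11 ± 0.20, edgeR adjusted p = 2.03e-09) was the largest among the 42 genes in any of the 3 comparisons. In Ch25hKO the change of -0.34 ± 0.14 did not pass (edgeR adjusted p = 0.0671), but it did without WT replicate 2 (-0.44, edgeR adjusted p = 0.0274). LXRdKO was 6.80-fold below Ch25hKO (-2.77 ± 0.20, edgeR adjusted p = 6.46e-09).

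Bub1 and Bub1b encode checkpoint kinases that hold anaphase until chromosomes are attached. Bub1 was at 2.68 and 2.60 CPM in WT, in Ch25hKO 2.38 and 2.64, and in LXRdKO 0.866 and 0.860. WT and Ch25hKO overlapped, while LXRdKO was 3.05-fold below WT (-1.61 ± 0.19, edgeR adjusted p = 5.31e-06). Bub1b was at 1.53 and 1.80 CPM in WT, in Ch25hKO 1.15 and 1.26, and in LXRdKO 0.957 and 0.927. Its 3 groups did not overlap, and it fell 1.76-fold in LXRdKO (-0.82 ± 0.22, edgeR adjusted p = 0.00952), a call that did not hold with DESeq2 and without either LXRdKO library. Cdc20, the activator of the anaphase-promoting complex, and Ttk, the kinase that starts checkpoint signalling, were near 0.5 CPM in WT and passed no test, with changes in LXRdKO of -0.96 ± 0.40 (edgeR adjusted p = 0.0743) and -0.91 ± 0.38 (edgeR adjusted p = 0.0782).

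Of the mitotic kinases and the chromosomal passenger complex, with Cdca3 counted among them, 4 of 6 genes fell in LXRdKO and 1 of 6 in Ch25hKO. Of all tested genes 15.5% and 19.5% were called lower there, so the 1 of 6 (16.7%) lies near that share. Birc5 encodes survivin, a subunit of the passenger complex, and was at 2.12 and 2.60 CPM in WT, in Ch25hKO 1.45 and 1.70, and in LXRdKO 0.843 and 0.724. The groups fell into 3 separate ranges, and Birc5 changed by -0.58 ± 0.20 in Ch25hKO (edgeR adjusted p = 0.026) and by -1.59 ± 0.22 in LXRdKO (edgeR adjusted p = 2.74e-05). The Ch25hKO call was lost with DESeq2, without WT replicate 2 and without either Ch25hKO library. Plk1, a kinase of mitotic entry and spindle assembly, was at 1.06 and 0.829 CPM in WT, in Ch25hKO 0.830 and 0.665, and in LXRdKO 0.319 and 0.385. Its LXRdKO libraries were the 2 lowest, and it fell 2.67-fold (-1.42 ± 0.33, edgeR adjusted p = 0.00288). Cdca8, which encodes borealin of the passenger complex, fell by 0.62 ± 0.18 (edgeR adjusted p = 0.0164) and Cdca3, a trigger of mitotic entry, by 0.84 ± 0.29 (edgeR adjusted p = 0.0352) in LXRdKO. Both of these calls were lost with DESeq2, without WT replicate 2 and without either LXRdKO library, and that of Cdca3 also without WT replicate 1, without Ch25hKO replicate 2 and when the other group was left out of the fit.

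The Aurora kinases did not pass in any comparison. Aurka, which works at spindle poles, was at 1.94 and 1.13 CPM in WT, in Ch25hKO 1.45 and 1.19, and in LXRdKO 0.911 and 1.06. Its WT libraries differed more from each other than the groups did, and its change in LXRdKO was -0.63 ± 0.27 (edgeR adjusted p = 0.0795), past the threshold without WT replicate 2 and with no filter on low counts. Aurkb, the kinase of the passenger complex, had a difference of -0.24 ± 0.25 in LXRdKO (edgeR adjusted p = 0.51).

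Genes of centromeres and chromosomes went in 3 different ways. Cenpf encodes a large kinetochore protein, and Top2a the topoisomerase that untangles sister chromatids. Cenpf (ENSMUSG00000026605.14, chromosome 1, 189640606 to 189688086) was at 3.40 and 2.97 CPM in WT, in Ch25hKO 3.34 and 2.66, and in LXRdKO 0.342 and 0.611. WT and Ch25hKO overlapped, and LXRdKO was 6.65-fold below WT (-2.73 ± 0.24, edgeR adjusted p = 1.6e-07) and 6.27-fold below Ch25hKO (edgeR adjusted p = 1.29e-07). Top2a (ENSMUSG00000020914.17, chromosome 11, 98992943 to 99024189) was at 9.61 and 9.05 CPM in WT, in Ch25hKO 8.19 and 8.23, and in LXRdKO 3.40 and 2.83. LXRdKO again stood apart, with a change of -1.58 ± 0.12 against WT (edgeR adjusted p = 1.23e-08), while Ch25hKO did not pass (-0.18 ± 0.10, edgeR adjusted p = 0.164).

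Cenpe, the kinesin that carries chromosomes to the spindle equator, fell in both knockouts. It was at 14.6 and 12.5 CPM in WT, in Ch25hKO 7.40 and 6.93, and in LXRdKO 7.72 and 8.30. The changes were -0.92 ± 0.10 in Ch25hKO (edgeR adjusted p = 1.07e-06) and -0.76 ± 0.10 in LXRdKO (edgeR adjusted p = 1.21e-05), and the difference of 0.16 ± 0.10 between the knockouts did not pass (edgeR adjusted p = 0.249). Cenpa, the histone H3 variant of centromeres, was at 2.52 and 3.04 CPM in WT, in Ch25hKO 1.91 and 1.90, and in LXRdKO 2.32 and 2.35. It fell in Ch25hKO (-0.54 ± 0.17, edgeR adjusted p = 0.0169), a call that did not hold with DESeq2, without WT replicate 2 and without either Ch25hKO library.

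Mki67, the gene of the proliferation marker Ki-67, went the other way in Ch25hKO. Mki67 (ENSMUSG00000031004.8, chromosome 7, 135689784 to 135716361) was at 113 and 127 CPM in WT, in Ch25hKO 225 and 198, and in LXRdKO 112 and 110. Both Ch25hKO libraries lay above all others, and Mki67 rose 1.76-fold (0.82 ± 0.07, edgeR adjusted p = 3.5e-08). It was the single gene of the 27 mitotic ones that rose in either knockout against WT. In LXRdKO its change of -0.11 ± 0.07 did not pass (edgeR adjusted p = 0.204), although it did without WT replicate 1 (-0.20, edgeR adjusted p = 0.00802).

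Among the spindle and cytokinesis genes, Tpx2 stood out by its low level in Ch25hKO. The gene encodes a spindle assembly factor that activates Aurora A. Tpx2 (ENSMUSG00000027469.16, chromosome 2, 152847964 to 152895321) was at 92.7 and 79.6 CPM in WT, in Ch25hKO 36.1 and 41.3, and in LXRdKO 92.3 and 97.6. WT and LXRdKO overlapped, and Ch25hKO was less abundant in both libraries, with a 2.22-fold fall (-1.15 ± 0.08, edgeR adjusted p = 1.2e-08). LXRdKO was 2.45-fold above Ch25hKO (1.29 ± 0.08, edgeR adjusted p = 1.8e-09). Against WT, LXRdKO did not pass (0.14 ± 0.07, edgeR adjusted p = 0.156), but did so without WT replicate 1 (0.25, edgeR adjusted p = 0.00103) and with no filter on low counts.

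Kif23 and Prc1 serve the central spindle, along which a dividing cell is cut apart. Kif23 was at 7.13 and 7.80 CPM in WT, in Ch25hKO 2.74 and 3.28, and in LXRdKO 3.42 and 3.37. It fell in both knockouts, 2.48-fold in Ch25hKO (-1.31 ± 0.13, edgeR adjusted p = 3.21e-07) and 2.20-fold in LXRdKO (-1.14 ± 0.13, edgeR adjusted p = 1.9e-06), which did not differ past the threshold from each other (0.17 ± 0.14, edgeR adjusted p = 0.374). Prc1 was at 2.36 and 2.12 CPM in WT, in Ch25hKO 1.29 and 1.63, and in LXRdKO 0.638 and 0.588. Its groups lay in 3 separate ranges, with a fall of 3.64-fold in LXRdKO (-1.87 ± 0.23, edgeR adjusted p = 8.14e-06) and a smaller one in Ch25hKO (-0.62 ± 0.20, edgeR adjusted p = 0.0213) that was lost with DESeq2, without WT replicate 1 and without Ch25hKO replicate 1.

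Nusap1 and Kif11 fell in LXRdKO and did not pass the test in Ch25hKO. Nusap1, a microtubule-bundling protein, was at 3.83 and 3.75 CPM in WT, in Ch25hKO 3.81 and 3.58, and in LXRdKO 1.30 and 1.22. Ch25hKO overlapped WT, and LXRdKO changed by -1.59 ± 0.16 (edgeR adjusted p = 8.56e-07). Kif11, the motor that separates spindle poles, was at 2.66 and 2.42 CPM in WT, in Ch25hKO 2.17 and 1.86, and in LXRdKO 1.30 and 1.43, a 1.86-fold fall in LXRdKO (edgeR adjusted p = 0.00115). Kif20a, a cytokinesis motor, was at 0.788 and 0.829 CPM in WT, in Ch25hKO 1.27 and 0.894, and in LXRdKO 0.684 and 0.882, and passed no test.

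**Figure D3:**
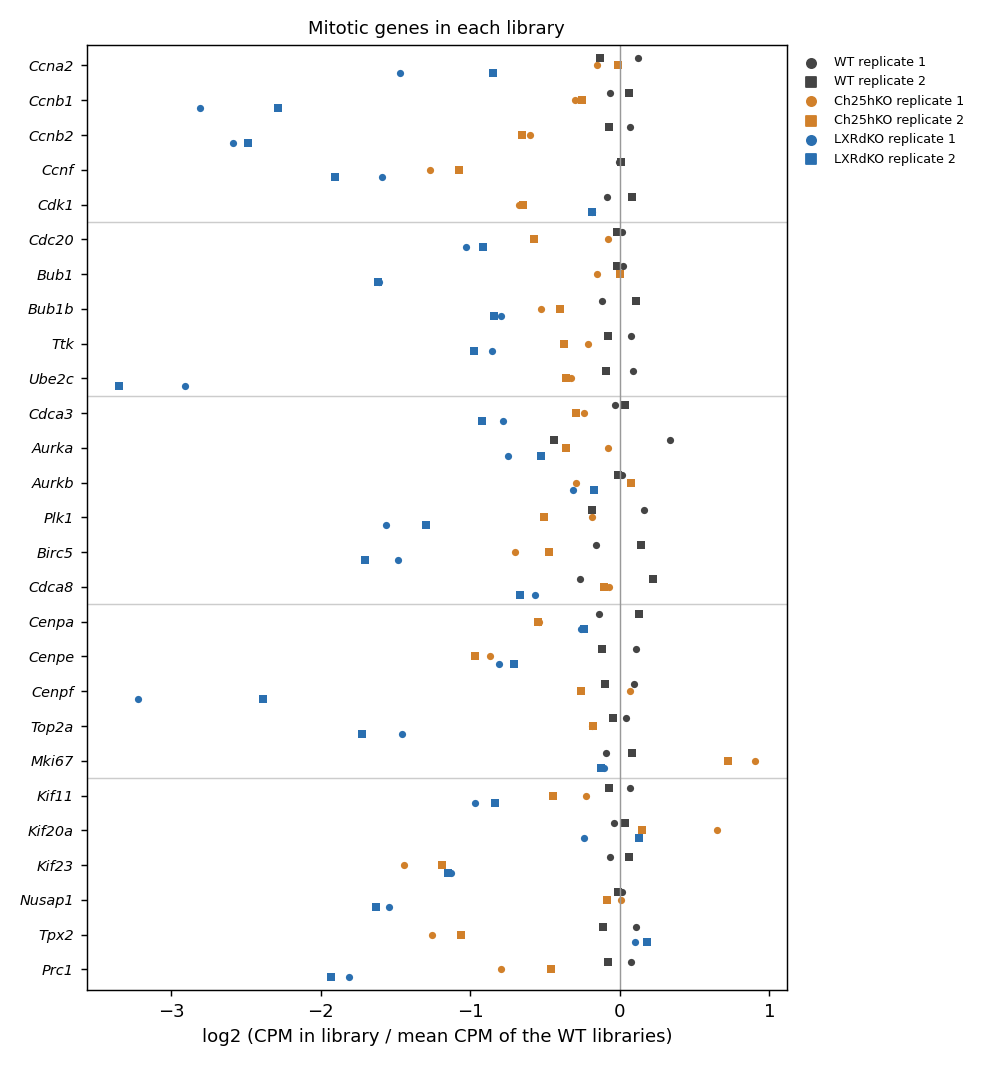
Each of the 27 mitotic genes in each library, as log2 of its CPM over the mean CPM of the WT libraries, with grey lines between roles. Circles are replicate 1 and squares replicate 2. LXRdKO points (blue) lie left of both WT points for 25 genes, Mki67 in Ch25hKO (orange) lies to the right, and Tpx2 in Ch25hKO lies to the left.

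All 3 genes of origin licensing fell in Ch25hKO, where 19.5% of all tested genes were called lower. Cdt1 loads the MCM helicase and geminin, from Gmnn, holds CDT1 back. Cdt1 (ENSMUSG00000006585.3, chromosome 8, 122568015 to 122573554) was at 24.8 and 22.5 CPM in WT, in Ch25hKO 10.4 and 11.7, and in LXRdKO 18.5 and 20.8. Ch25hKO was lowest in both libraries, 2.13-fold below WT (-1.09 ± 0.09, edgeR adjusted p = 2.09e-08). LXRdKO was above Ch25hKO by 0.82 ± 0.09 (edgeR adjusted p = 5.2e-07) and below WT by a change of -0.27 ± 0.08 (edgeR adjusted p = 0.0156), a call that did not hold with DESeq2, without WT replicate 1 (-0.20) and without LXRdKO replicate 1 (-0.19). Gmnn was at 5.04 and 4.77 CPM in WT, in Ch25hKO 3.48 and 3.44, and in LXRdKO 4.28 and 4.48. Both the loader and its inhibitor were thus lowest in Ch25hKO, where Gmnn changed by -0.50 ± 0.13 (edgeR adjusted p = 0.00409). Cdc6, which recruits the helicase with CDT1, was at 0.833 and 0.921 CPM in WT, in Ch25hKO 0.346 and 0.482, and in LXRdKO 0.456 and 0.566. Its fall in Ch25hKO (-1.08 ± 0.33, edgeR adjusted p = 0.0142) did not hold with DESeq2 or without Ch25hKO replicate 1, and in LXRdKO it did not pass (-0.78 ± 0.31, edgeR adjusted p = 0.0686).

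The subunits of the MCM helicase, which work as 1 ring, went in different directions. Mcm5 (ENSMUSG00000005410.6, chromosome 8, 75109569 to 75128439) was at 5.51 and 4.51 CPM in WT, in Ch25hKO 3.37 and 3.37, and in LXRdKO 2.28 and 2.13. Its groups were separate, and it fell by 0.57 ± 0.14 in Ch25hKO (edgeR adjusted p = 0.00324) and by 1.19 ± 0.15 in LXRdKO (edgeR adjusted p = 8.38e-06). Mcm6 (ENSMUSG00000026355.11, chromosome 1, 128331590 to 128359664) was at 28.7 and 23.2 CPM in WT, in Ch25hKO 17.8 and 19.2, and in LXRdKO 19.1 and 20.5. It fell in Ch25hKO (-0.49 ± 0.09, edgeR adjusted p = 0.000269) and in LXRdKO (-0.39 ± 0.09, edgeR adjusted p = 0.00235), and the knockouts overlapped. The LXRdKO call of Mcm6 did not hold without LXRdKO replicate 1 (edgeR adjusted p = 0.0509).

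Mcm2 was at 1.15 and 1.17 CPM in WT, in Ch25hKO 1.34 and 1.26, and in LXRdKO 0.592 and 0.566. It fell in LXRdKO to 49.9% of the WT level (SE of 0.26 on the log2 scale, edgeR adjusted p = 0.00658), a call that did not hold without LXRdKO replicate 2 (edgeR adjusted p = 0.056), and its change in Ch25hKO, 0.16 ± 0.23, did not pass. Mcm3 was at 7.29 and 7.51 CPM in WT, in Ch25hKO 10.2 and 9.36, and in LXRdKO 7.27 and 6.49. Ch25hKO was the high group here, with a 1.32-fold rise (0.40 ± 0.10, edgeR adjusted p = 0.00346) that was lost without Ch25hKO replicate 1 (edgeR adjusted p = 0.0703). Mcm4, at 10.6 to 13.2 CPM in the 6 libraries, and Mcm7, at 2.37 to 3.81 CPM, passed no test, and Mcm7 passed for a higher level in LXRdKO without WT replicate 1 (0.50, edgeR adjusted p = 0.0484).

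Pcna encodes the sliding clamp of the replicative polymerases. Pcna (ENSMUSG00000027342.14, chromosome 2, 132249162 to 132253314) was at 167 and 150 CPM in WT, in Ch25hKO 120 and 122, and in LXRdKO 146 and 151. Ch25hKO was below the other 4 libraries, and Pcna fell 1.32-fold there (-0.40 ± 0.06, edgeR adjusted p = 2.39e-05). LXRdKO overlapped WT (-0.09 ± 0.06, edgeR adjusted p = 0.219) and was above Ch25hKO by 0.30 ± 0.06 (edgeR adjusted p = 0.00034). Without WT replicate 2 the LXRdKO change of Pcna passed (-0.18, edgeR adjusted p = 0.00466).

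Of the nucleotide enzymes, Rrm1 and Rrm2 fell in LXRdKO and Tyms did not pass. Rrm1, the large subunit of ribonucleotide reductase, was at 8.01 and 8.45 CPM in WT, in Ch25hKO 7.20 and 7.73, and in LXRdKO 6.47 and 6.04. It fell in LXRdKO (-0.40 ± 0.10, edgeR adjusted p = 0.00618), a call that did not hold without LXRdKO replicate 2 (edgeR adjusted p = 0.0731). Rrm2, the small subunit, had 8 to 29 counts per library, and its LXRdKO call (-1.19 ± 0.43, edgeR adjusted p = 0.043) was lost under 9 of 13 alternatives. Tyms, thymidylate synthase, stayed between 3.28 and 4.08 CPM and passed no test.

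Of the E cyclins, which drive entry into S phase, Ccne1 was at 2.81 and 2.72 CPM in WT, in Ch25hKO 1.85 and 1.63, and in LXRdKO 2.57 and 2.28. Ccne1 fell 1.59-fold in Ch25hKO (-0.67 ± 0.17, edgeR adjusted p = 0.00445), a call that did not hold without Ch25hKO replicate 2 (edgeR adjusted p = 0.0571). LXRdKO was above Ch25hKO by 0.48 ± 0.17 (edgeR adjusted p = 0.0353), a call that did not hold with DESeq2 and without any 1 of the 4 libraries compared. Ccne2 had a difference of -0.36 ± 0.25 in each knockout and passed no test.

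**Figure D4:**
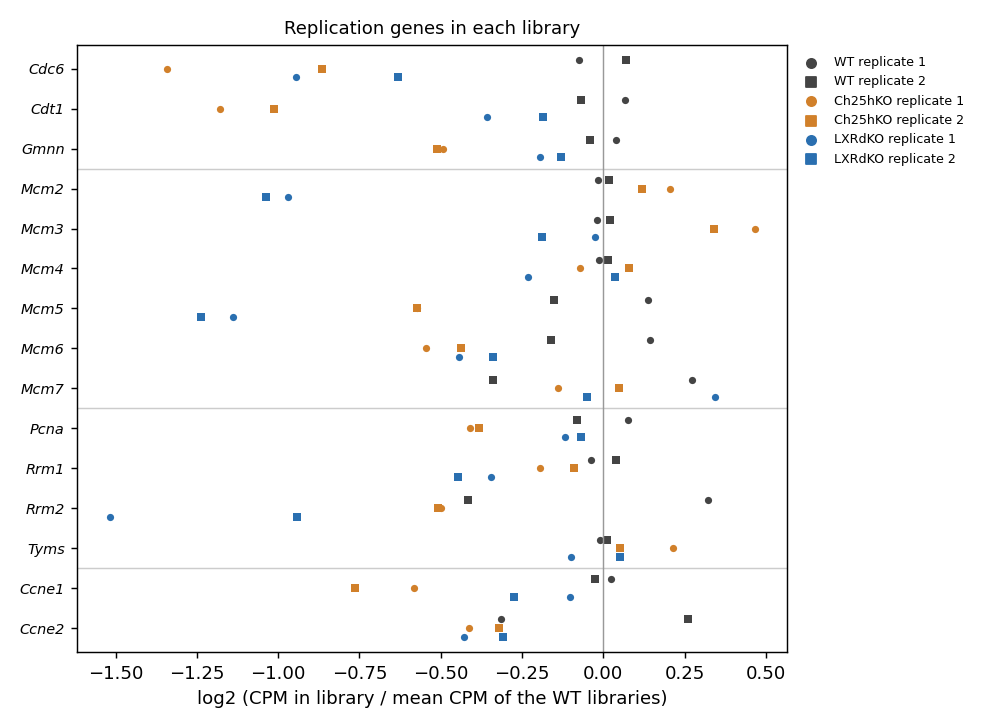
Each of the 15 replication genes in each library, as log2 of its CPM over the mean CPM of the WT libraries, with grey lines between roles. Circles are replicate 1 and squares replicate 2. The Ch25hKO points (orange) of Cdt1, Gmnn and Pcna lie left of all other points, and those of Mcm3 lie to the right.

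Read across the 3 comparisons, the genes fell into a few patterns. The largest was lower in LXRdKO than in both WT and Ch25hKO with no call for Ch25hKO against WT, which held for 10 mitotic genes (Ccna2, Ccnb1, Cdca8, Bub1, Top2a, Plk1, Cenpf, Kif11, Nusap1 and Ube2c) and for Mcm2. Ccnb2, Ccnf, Birc5, Prc1 and Mcm5 were lower in both knockouts and lower again in LXRdKO than in Ch25hKO. Cenpe, Kif23 and Mcm6 were lower in both with no call between the knockouts. Cdk1, Tpx2, Pcna, Gmnn and Ccne1 fell in Ch25hKO and were higher in LXRdKO than in Ch25hKO, with no call for LXRdKO against WT, and Mki67 and Mcm3 showed the mirror image, rising in Ch25hKO. Between the knockouts, the calls of Cdca8, Kif11, Plk1, Gmnn, Cdk1 and Ccne1 did not hold with DESeq2 or without LXRdKO replicate 1 or LXRdKO replicate 2, that of Ccna2 without LXRdKO replicate 1, and that of Mcm5 without LXRdKO replicate 2. The first 6 also depended on Ch25hKO replicate 1, and those of Cdca8, Gmnn, Cdk1 and Ccne1 on Ch25hKO replicate 2.

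Wider lists of cell cycle genes were read in the same way. Of 50 further mitotic genes, 46 were tested, of which 25 fell and 1 rose in LXRdKO (median -0.77), 12 fell and 3 rose in Ch25hKO (median -0.31), and 17 were lower and 2 higher in LXRdKO than in Ch25hKO (median -0.42). Of all tested genes 15.5%, 19.5% and 18.6% were lower in these comparisons, and 16.4%, 19.8% and 19.3% were higher. The 12 that fell in Ch25hKO became 6 without either Ch25hKO library and 5 with DESeq2, and the 17 became 11 with DESeq2, while leaving out 1 library at a time left 20 to 25 called lower in LXRdKO against WT. Aspm, a spindle pole protein, was at 1.35 and 1.52 CPM in WT, in Ch25hKO 1.41 and 1.47, and in LXRdKO 0.228 and 0.317, a fall of 2.38 ± 0.30 on the log2 scale (edgeR adjusted p = 8.06e-06). Hmmr, a microtubule-binding protein, and Tacc3, which stabilises spindle fibres, fell there too (-1.96 ± 0.24, edgeR adjusted p = 6.71e-06, and -0.91 ± 0.11, edgeR adjusted p = 4.83e-06). Mad2l1, the checkpoint protein MAD2, was likewise highest in Ch25hKO: it was at 14.2 and 14.3 CPM in WT, in Ch25hKO 25.3 and 27.6, and in LXRdKO 15.1 and 17.2, and rose in Ch25hKO (0.89 ± 0.08, edgeR adjusted p = 8.03e-08).

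Of 45 further replication genes, 44 were tested, of which 14 fell and 4 rose in Ch25hKO (median -0.17), 13 fell and 2 rose in LXRdKO (median -0.22), and 8 were lower and 5 higher in LXRdKO than in Ch25hKO (median -0.03). Of all tested genes 19.5%, 15.5% and 18.6% were lower in these comparisons, so that the 8 lower between the knockouts, 18.2% of those tested, lie near the background. The 14 that fell in Ch25hKO became 9 without either Ch25hKO library and with DESeq2. The 8 became 3 and 5 without Ch25hKO replicates 1 and 2, and 2 without LXRdKO replicate 2 and with DESeq2. The genes called higher were few, 0 to 3 in Ch25hKO and 1 to 3 in LXRdKO with 1 library left out, beside 19.8% and 16.4% of all tested genes. The 5 higher between the knockouts are 11.4% of those tested, beside 19.3% of all tested genes. Nasp, a histone chaperone, fell in both knockouts (-0.47 ± 0.06 in each). Dnmt1, the maintenance DNA methyltransferase, fell by 0.43 ± 0.06 in Ch25hKO and by 0.26 ± 0.05 in LXRdKO. Timeless, a fork protection protein, was lowest in Ch25hKO, as Tpx2 was: it was at 29.8 and 24.4 CPM in WT, in Ch25hKO 16.4 and 17.4, and in LXRdKO 30.8 and 31.7, falling in Ch25hKO (-0.68 ± 0.08, edgeR adjusted p = 3.85e-06).

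The summed level of another cell type's markers differed between the groups. The sum of 10 markers of myeloid progenitors, cells that divide, was 4.90 to 4.95 CPM in WT, in Ch25hKO 3.51 to 3.53, and in LXRdKO 2.46 to 2.83. Of the 6 that were tested, 3 fell in LXRdKO and 1 fell in Ch25hKO. At means under 5 CPM, 13.4% of tested genes were called lower in either knockout, so the 1 in Ch25hKO (16.7%) lies near that share. Cd34 was at 1.69 and 1.27 CPM in WT, in Ch25hKO 0.461 and 0.344, and in LXRdKO 0.114 and 0.452, and it fell in both knockouts. Myb fell in LXRdKO (-1.56 ± 0.37, edgeR adjusted p = 0.0037), and Mpo had 12 and 10 counts in WT, in Ch25hKO 7 and 5, and in LXRdKO 3 and 0. Cd27 and Kit passed no test. Cd27 was at 0.900 and 1.40 CPM in WT, in Ch25hKO 1.08 and 0.872, and in LXRdKO 0.866 and 1.31, and Kit at 0.653 and 0.875 CPM, 0.507 and 0.986, and 0.638 and 0.701. The granule genes Elane, Prtn3 and Ctsg had at most 1 count per library. The part of progenitors in the fall of the mitotic genes was not tested.

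Other marker lists differed between the groups as well. Of 9 tested macrophage markers, 7 rose in LXRdKO, where 16.4% of all tested genes were called higher. In Ch25hKO 1 rose (11.1%) and 3 fell (33.3%), beside 19.8% called higher and 19.5% called lower among all tested genes. With 9 markers, these shares rest on few calls. Summed stromal markers were at 31.1 to 35.1 CPM in WT, in Ch25hKO 41.7 to 42.8, and in LXRdKO 30.1 to 30.3, with 7 of 9 rising and 1 falling in Ch25hKO. Dendritic cell markers summed to 36.7 to 37.9, 19.3 to 20.2 and 28.7 to 32.8 CPM in the same order, with 5 of 9 falling in Ch25hKO. Neutrophil markers summed to 376 to 388 CPM in WT, in Ch25hKO 434 and 434, and in LXRdKO 407 to 417. Csf3r alone, at a mean of 355 CPM over all libraries, made up most of that sum. Of the 6 neutrophil markers tested, 3 rose and 0 fell in Ch25hKO. In LXRdKO 2 rose and 3 fell (median -0.18), beside 16.4% and 15.5% of all tested genes. Mast cell and basophil markers summed to 64.0 to 69.9 CPM in WT, in Ch25hKO 49.5 to 52.6, and in LXRdKO 52.1 to 54.8. Hdc alone, at a mean of 56.0 CPM over all libraries, made up most of that sum, and Gata2, the next highest, was at 0.776. Of the 6 markers in this list, 2 were tested. B cell markers summed to 0.475 to 1.13 CPM, T and NK cell markers to 4.44 to 5.41 CPM, and erythroid markers to 1.71 to 2.72 CPM, with the globin genes at 0 in every library. The part of these cells in the changes above was not tested.

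Exons of 11 of the 42 genes overlap another annotated gene. The sources used here do not state the counting mode or strand setting, so how reads in the shared bases were counted is not known. In Ube2c 592 bases of 2600 are shared with Tnnc2, which had 0 to 3 counts per library. In Prc1 815 bases overlap Rccd1, whose difference in LXRdKO was 0.05 ± 0.22, and in Ccna2 510 bases overlap Exosc9, whose difference was 0.11 ± 0.11. In Nusap1 172 of 4044 bases overlap Oip5, itself a centromere gene, with 37 and 40 counts in WT, in Ch25hKO 37 and 37, and in LXRdKO 22 and 20. In Kif20a 1271 of 4085 bases overlap Cdc23, which rose in Ch25hKO (0.42 ± 0.14, edgeR adjusted p = 0.024), where Kif20a itself differed by 0.42 ± 0.27, and did not pass in LXRdKO (0.11 ± 0.14). In Cdc20, at 0.512 CPM in WT, 53 bases overlap Elovl1, which was at 44.3 CPM in WT and rose in both knockouts (0.76 ± 0.06 and 0.34 ± 0.06). In Cdca8 232 bases overlap 9930104L06Rik, which also rose in both (0.36 ± 0.11 and 0.32 ± 0.11). The remaining ones were Plk1, Mcm7, Ccne2 and, by 8 bases, Ccnf.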

How the data were processed

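RNA was sequenced from 6 libraries of bone marrow-derived macrophages, after amplification of 100 ng with an Ovation kit, per the labels' protocols. The authors deposited raw read counts per gene symbol. The submitters' processing notes list CASAVA, STAR 2.3.0, HTSeq and the mm10 build. The sources used here state no annotation, counting mode or strand setting. Amplified reads are not independent molecules.

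The 42 genes, the further lists and the rule for named genes (all 42, the 3 targeted genes, the 4 lowest p of each further list, markers by level or call) were chosen with earlier results of these data known. Not every gene this rule picks has its values reported here. Counts were filtered with filterByExpr, which left 12923 genes holding 99.98% of the counts, scaled by TMM, and fitted over all 6 libraries with edgeR 4.0.16 (robust quasi-likelihood, R 4.3.3), with Benjamini-Hochberg adjustment. The fit had 3 residual degrees of freedom plus a prior of 14.4, and a common biological coefficient of variation of 4.41%. The standard error is the change divided by the square root of F. The scripts were tested on simulated data. Coordinates and exon lengths are GENCODE M21 (GRCm38), and promoters are RefSeq. For the promoters, LXRdKO against WT was used, which tied with LXRdKO against Ch25hKO at 24 called genes. Alternatives were RLE and upper-quartile scaling, DESeq2 1.42.0, limma-voom 3.58.1, other filters, a fit of the libraries compared, a replicate block and each library left out, which assumes that a lone library varies like the other groups. A crossed block was added after seeing the data.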

Additional observations from a re-analysis of the deposited data

How the results depend on the processing

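With a filter of at least 5 CPM in 2 libraries, which left 6 mitotic and 6 replication genes, the genes called lower numbered 4 and 3 in Ch25hKO, 4 and 3 in LXRdKO, and the mitotic ones 3 in LXRdKO against Ch25hKO. The mitotic median moved to -1.05 in Ch25hKO and -0.22 between the knockouts, since the low genes were gone. In LXRdKO against WT it was -0.98. Genes called higher in LXRdKO than in Ch25hKO went from 2 to 1 (mitotic) and from 4 to 2 (replication) with DESeq2 and with this filter. With no filter, 1 mitotic gene was called higher in LXRdKO against WT instead of 0. With each library left out in turn, mitotic genes called lower ranged from 6 to 9 in Ch25hKO, from 14 to 18 in LXRdKO and from 11 to 15 between the knockouts, and those called higher from 1 to 1, 0 to 1 and 1 to 2. Replication genes called lower ranged from 6 to 7, from 3 to 7 (3 without either LXRdKO library) and from 2 to 4, and those called higher from 0 to 1 (0 without Ch25hKO replicate 1), 0 to 1 and 2 to 4. Of the called genes, 12 of 18 in Ch25hKO, 15 of 24 in LXRdKO and 16 of 24 between the knockouts kept their call under every alternative run, and no called gene reversed. RLE and upper-quartile scaling moved the median of all genes by between -0.015 and 0.0080 on the log2 scale.

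Same-numbered libraries did not deviate together (correlations of -0.18, -0.02 and 0.04). With 2 libraries per group, this check cannot tell whether the numbers pair them. The replicate block left 9 and 18 mitotic genes called lower in Ch25hKO and LXRdKO, and changed the calls of Rrm2 in LXRdKO against WT and of Gmnn between the knockouts. With crossed numbers as a block, 10 mitotic and 7 replication genes were called lower in Ch25hKO. Low counts limit the genes under 1 CPM.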

Other observations

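Of 25 tested regulators of the cell cycle, 5 rose and 6 fell in each knockout against WT (edgeR), or 20.0% and 24.0%. Of all tested genes 19.8% rose and 19.5% fell in Ch25hKO, and 16.4% rose and 15.5% fell in LXRdKO, so that these shares lie near the background. Rbl1, which encodes the pocket protein p107, was at 75.0 and 63.7 CPM in WT, in Ch25hKO 39.4 and 42.5, and in LXRdKO 82.9 and 86.3. It fell in Ch25hKO (-0.76 ± 0.07, edgeR adjusted p = 1.84e-07) and rose in LXRdKO (0.29 ± 0.07, edgeR adjusted p = 0.00341). E2f8, a repressor of the E2F family, was at 8.58 and 7.62 CPM in WT, in Ch25hKO 4.08 and 5.23, and in LXRdKO 10.2 and 11.4, so that it too moved in opposite directions. Rbl2, the pocket protein p130, rose in both knockouts (0.67 ± 0.07 and 0.60 ± 0.07), and Lin54, the DNA-binding subunit of MuvB, fell in both (-0.62 ± 0.06 and -0.26 ± 0.06).

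Of 10 genes of the p53 and DNA damage response, 2 rose and 4 fell in Ch25hKO (20.0% and 40.0%), beside 19.8% and 19.5% of all tested genes. In LXRdKO 3 rose and 3 fell (30.0% each), beside 16.4% and 15.5%. With 10 genes in the list, these shares rest on few calls. Plk2 was at 286 and 277 CPM in WT, in Ch25hKO 127 and 132, and in LXRdKO 157 and 186, falling in both. Gadd45a rose in both (0.88 ± 0.08 and 0.35 ± 0.08), and Mdm2, the ubiquitin ligase of p53, fell in both (-0.46 ± 0.06 and -0.54 ± 0.06). Btg2 fell in Ch25hKO (-0.28 ± 0.06) and rose in LXRdKO (0.16 ± 0.06, edgeR adjusted p = 0.0356). Of 68 histone genes in the table, 19 were tested and 11 had no count in any library. Of the 19, 3 fell in Ch25hKO (15.8%, against 19.5% of all tested genes). In LXRdKO 2 fell (10.5%, against 15.5%) and 1 rose (5.26%, against 16.4%), so these shares did not exceed the background. Hist3h2a was at 30.0 and 27.5 CPM in WT, in Ch25hKO 20.8 and 19.7, and in LXRdKO 36.5 and 41.1.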
